A study of Homo sapiens with 6 samples.

Results

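The genes described are 32 transcriptional targets of the tumor suppressor p53, given as a list of symbols and matched by gene symbol in the expression table. All 32 were among the 17448 genes listed. p53 is a transcription factor that is stabilized by DNA damage and other stresses, and its targets arrest the cell cycle, repair DNA, sensitize cells to apoptosis and, through MDM2, shut p53 off again. Many of these genes are also transcribed by the p53 relatives p63 and p73, and p63 is the lineage factor of squamous epithelium. Basal transcription, other stress pathways and p63 can therefore all contribute to the level of a p53 target in squamous cells.

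RNA-seq was performed on polyA-selected RNA of HCC2814 cells, a human LUSC (lung squamous cell carcinoma) line, in 3 WT samples that received a non-targeting sgRNA (sgCtrl) and 3 MLST8-KO samples that received sgRNA against MLST8, a subunit shared by mTORC1 and mTORC2. The sgRNA and Cas9 came from a lentiCRISPR v2 vector with antibiotic selection, and the series' design describes the replicates as independent experiments. Whether the replicate numbers also mark different sgRNA sequences is not given in the sources used here. The methods describe selection of the transduced HCC2814 cells and no isolation of clones. In what follows, sample values are listed in the order of replicates 1, 2 and 3. The comparison asks how mTORC2 loss changed the transcriptome, and here the 32 p53 targets.

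Estimated counts summed to between 14381673 and 15744154 per sample. MLST8 itself read 58.0, 56.9 and 60.7 CPM (counts relative to the TMM-scaled library size) in WT and 25.5, 38.9 and 25.7 CPM in MLST8-KO samples, a decrease (log2 fold change -0.96, standard error, SE, 0.15, adjusted p = 0.00339, edgeR). All 10 squamous or basal epithelial markers examined were present at 1 TPM (transcript abundance relative to gene length and library) or more in every library. Their summed level was 11886 to 19044 TPM in WT and 24074 to 26905 TPM in MLST8-KO samples, and 9 of the 10 were higher DEGs (differentially expressed genes, adjusted p under 0.05 in edgeR's quasi-likelihood test over the 12951 genes that passed the filter on low counts). The 8 hepatocyte markers summed to 196 TPM in MLST8-KO replicate 1 and to between 0.64 and 4.68 TPM elsewhere (2 were higher DEGs). This library stood apart in these markers, and counts of DEGs are also given without it. Over expressed genes, its chi-square per gene (a measure of differing counts) was 7.15 and 6.98 against MLST8-KO replicates 2 and 3. Those 2 differed by 9.44, and WT replicates 1 and 3 differed most, at 26.5. The 4 adenocarcinoma or alveolar markers measured summed to 1.43 to 3.39 TPM in WT and 7.68 to 9.63 TPM in MLST8-KO samples (1 was a higher DEG), and the 5 fibroblast markers to 10.1 to 13.3 TPM in all samples. The 3 leukocyte markers measured stayed under 1 TPM in sum, as did the 3 endothelial markers except in WT replicate 2 (1.11 TPM), and 1 endothelial marker was a lower DEG.

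To show the kind of element through which p53 acts, promoter windows from 250 bases before to 50 bases after each start site (RefSeq, GRCh38.p14) were searched for the p53 response element, a pair of 10-base repeats separated by 0 to 13 bases, with the 4-base core of each repeat (C, then 2 bases that are A or T, then G) intact and at most 3 mismatches elsewhere. The consensus is its own reverse complement, so a single pass covered both strands. Windows were at hand for 26 of the 32 genes, and 4 of these 26 (15.4%) held such an element, against 5.53% of all 27305 genes with a window. For each of the 4 genes the match with the fewest mismatches is shown, because these are the members' closest matches to the sequence that p53 binds. The FAS window held 2 matches under this rule, and the others 1 each. Capitals mark the repeats, and each is read 5′ to 3′ on the gene's plus strand.
DDB2: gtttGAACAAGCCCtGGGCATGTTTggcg
AEN: agccGGGCTTGCCCGGGCATGTGGgagc
FAS: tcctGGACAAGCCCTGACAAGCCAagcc
GDF15: gcacAGCCATGCCCGGGCAAGAACtc
The DDB2 element (chr11:47214975-47215003) had 0 mismatches and lay from 5 to 25 bases after the start site, in an exon annotated by GENCODE as UTR. The AEN element (chr15:88621302-88621329) had 2 mismatches and lay at -34 to -15 from the RefSeq start, within an exon that GENCODE annotates as AEN UTR. The FAS element (chr10:88991305-88991332), also with 2 mismatches, lay at -122 to -103 from an internal FAS start, where GENCODE places exons of both FAS and the opposite-strand gene ACTA2. The GDF15 element (chr19:18386182-18386207) had 3 mismatches and lay 28 to 47 bases after the start, in an exon with UTR and coding annotation. A match is a description of letters, and these windows miss elements in introns, where many p53 sites lie. Among the 4 genes GDF15 was a lower DEG in MLST8-KO cells, while DDB2, AEN and FAS were not DEGs. The 6 genes without a window were the DEGs TNFRSF10A, TNFRSF10B, TP53INP1 and GADD45A, and RRM2B and PHLDA3. Elements near these 6 were therefore not searched for.

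The 32 genes spanned a wide range of levels in HCC2814 cells. PERP, a membrane protein of desmosomes and of p53-dependent apoptosis, was the most abundant, at 462 ± 132 TPM in WT and 760.3 ± 90.9 TPM in MLST8-KO cells (SD, n = 3 each, as for all means below). EPHA2, a receptor tyrosine kinase for ephrins, followed at 144 ± 11.7 and 99.0 ± 13.05 TPM. Then came GADD45A, a growth arrest protein that binds PCNA, at 109 ± 28.6 and 72.3 ± 6.0 TPM, and GDF15, a secreted cytokine of the TGF-beta family, at 82.8 ± 22.7 and 31.1 ± 6.03 TPM. By mean TPM, GDF15 was the 4th of the 32 genes in WT and the 8th in MLST8-KO cells, and BTG2 moved from the 12th place to the 7th. At the other end, SPATA18, which acts in mitochondrial quality control, was at 0.507 ± 0.126 and 0.540 ± 0.140 TPM. EDA2R, a receptor for ectodysplasin, had 0 counts in 5 libraries and 1 count in MLST8-KO replicate 1. With 0 reads counted, as many as 3 could be expected, which is 0.1905 to 0.2086 CPM, so EDA2R expression was not detectable at this depth, and it was the only member that was not tested. The limit covers counting error only.

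**Figure D1:**
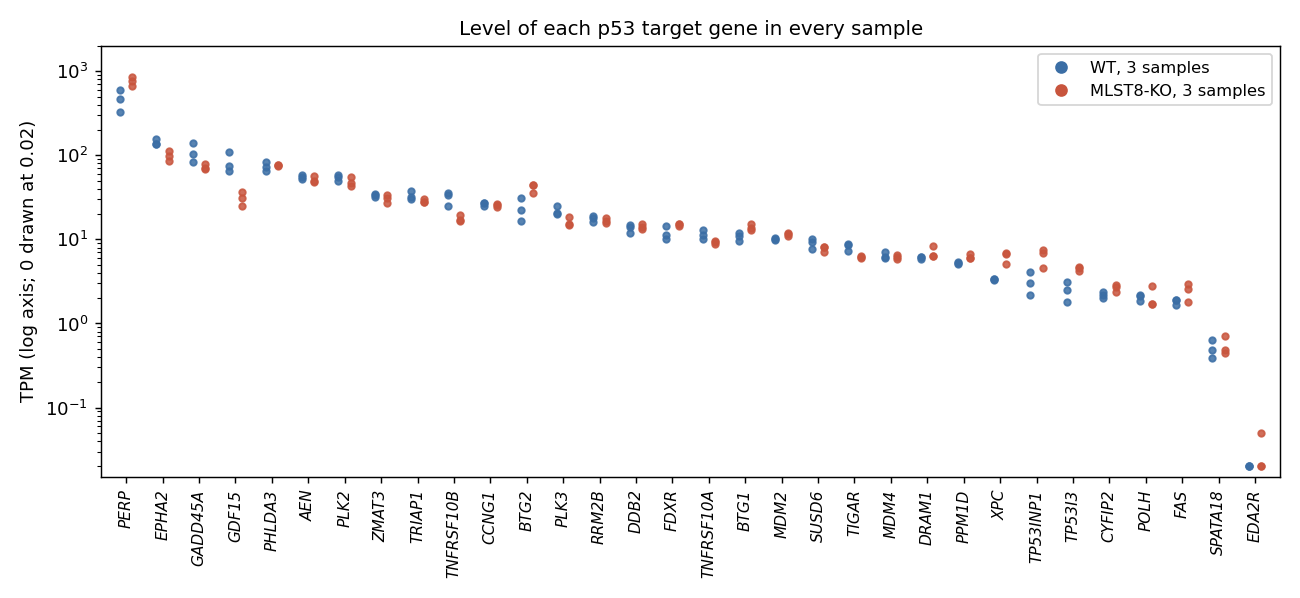
TPM of each of the 32 genes in the 3 WT and 3 MLST8-KO samples, on a log axis and ordered by the WT mean, with values of 0 drawn at 0.02. PERP lies above all other genes in every sample, the GDF15 points of the groups do not overlap, and EDA2R is at 0 in 5 of 6 libraries.

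Together the 32 genes took 0.191% to 0.215% of the counts in WT and 0.210% to 0.226% in MLST8-KO samples. PERP contributed 24.9% to 39.8% of these counts in WT and 46.8% to 50.9% in MLST8-KO samples. Without PERP the share was 0.130% to 0.144% in WT and 0.111% to 0.119% in MLST8-KO samples, so the other 31 genes took a smaller share in every MLST8-KO library than in any WT library.

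In MLST8-KO cells, 7 of the 31 members tested were lower and 4 were higher. The lower DEGs were the cytokine GDF15, the TRAIL death receptors TNFRSF10B and TNFRSF10A, the growth arrest gene GADD45A, the kinases EPHA2 and PLK3 and the metabolic regulator TIGAR. The higher DEGs were TP53INP1, PERP, BTG2 and XPC. Of all genes tested, 15.7% were lower and 16.3% were higher DEGs, against 22.6% and 12.9% of the members, so DEGs of both directions occurred among the members, and no test set these shares against those of all genes. The median log2 fold change was -0.12 over the 31 members and 0.00 over all genes tested. In 9 members every MLST8-KO sample lay above every WT sample and in 10 below, against backgrounds of 24.8% and 24.2% of genes. Without MLST8-KO replicate 1, edgeR called 4 members lower and 0 higher, against 6.50% and 7.49% of all genes. At an unadjusted p under 0.05, 10 members were lower and 4 higher in that fit. The share of all genes at this cutoff was not counted for it. Without WT replicate 1, edgeR called 11 members lower and 5 higher, against 20.2% and 20.5% of all genes. With limma on log2(TPM + 0.1), a scale on which the median of all genes was 0.10 above 0, 6 members were lower and 6 higher, against 8.74% and 21.3% of all genes. The p-values measure the spread between these samples of a single cell line, which may include a difference in sgRNA between replicates.

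**Figure D2:**
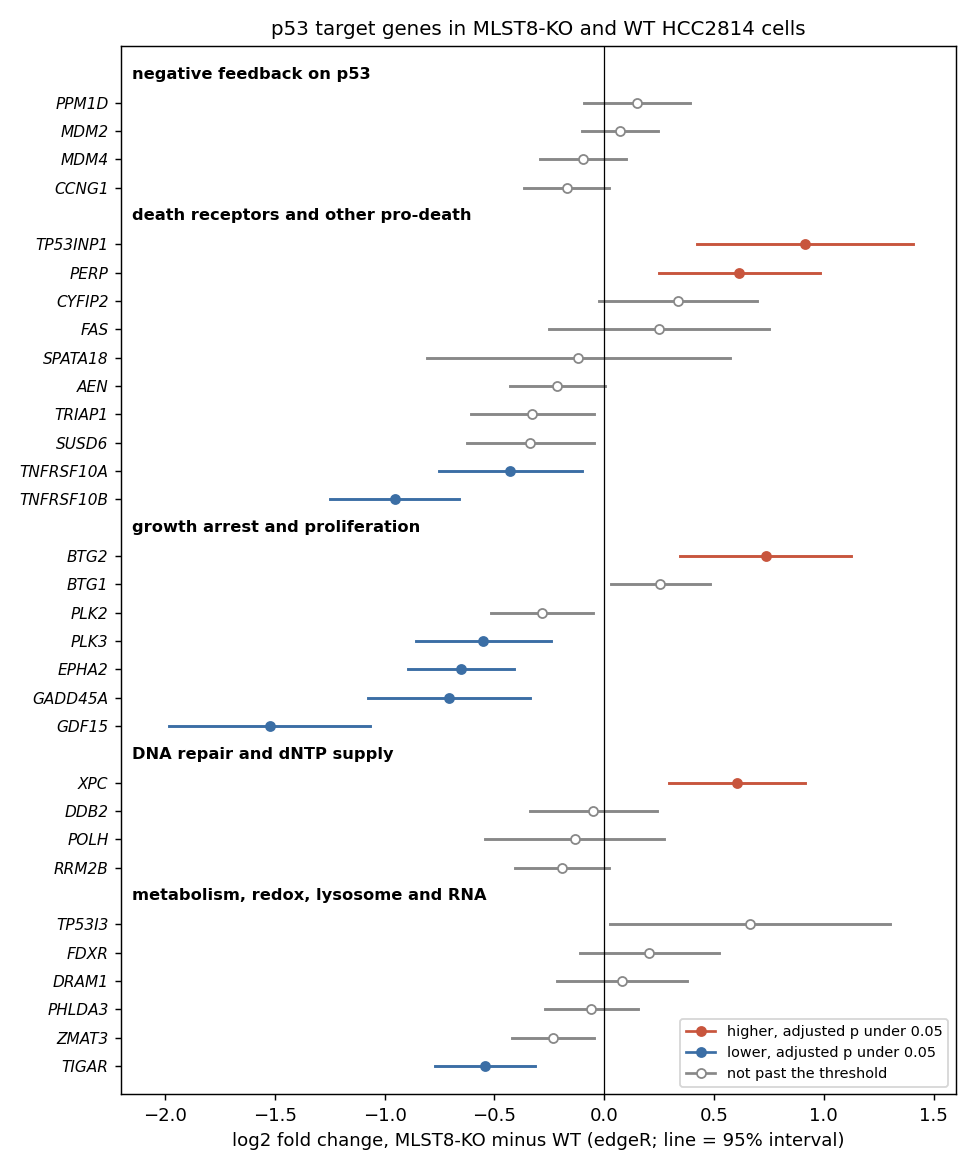
Log2 fold change (MLST8-KO minus WT) of the 31 genes tested, grouped by role, with 95% intervals from the edgeR fit. Filled points passed the adjusted p of 0.05, with the largest fall in GDF15 (-1.52) and the largest rise in TP53INP1 (0.91), and the 4 feedback genes at the top all have intervals that include 0.

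The genes that restrain p53 itself did not pass the threshold in either direction (0 of 4 DEGs), as was the case for most genes, since 15.7% of all genes were lower and 16.3% higher. MDM2, the ubiquitin ligase that degrades p53 and is the classical feedback target, was at 41.1, 39.2 and 40.0 CPM in WT and 42.1, 42.8 and 41.5 CPM in MLST8-KO samples. The MLST8-KO samples lay just above the WT samples, and the interval of the log2 fold change ran from -0.10 to 0.24 (estimate 0.07, adjusted p = 0.497, edgeR). MDM4, its relative that masks the p53 activation domain, was at 31.8, 34.7 and 31.7 CPM in WT and 30.1, 32.1 and 29.6 CPM in MLST8-KO samples, with overlapping groups (log2 fold change -0.10, interval -0.29 to 0.10, adjusted p = 0.423, edgeR). PPM1D, the phosphatase WIP1 that reverses DNA damage signaling, had a log2 fold change of 0.15 (interval -0.09 to 0.39), with all MLST8-KO samples above all WT samples. For CCNG1, cyclin G1, the value was -0.17 (interval -0.37 to 0.02), with all MLST8-KO samples below all WT samples. Over these 4 genes the intervals reached from -0.37 to 0.39 on the log2 scale. Of the 4, 0 had an unadjusted p under 0.05 in edgeR or were DEGs in DESeq2. Among all 12951 genes tested, 1669 had such an unadjusted p without being DEGs, beside 2116 higher and 2030 lower DEGs. DESeq2 called 15.1% of all genes lower and 13.9% higher.

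Among the 10 tested genes with roles in cell death, 2 were lower, 2 were higher and 6 were not DEGs, beside 15.7% lower and 16.3% higher among all genes. Without MLST8-KO replicate 1, TNFRSF10B was the only DEG of this group. TNFRSF10B, the TRAIL receptor DR5 (chromosome 8, 23020133 to 23069179, GRCh38), is induced by p53 and also by endoplasmic reticulum stress. Its level was 55.7, 74.6 and 82.1 CPM in WT and 34.7, 39.1 and 35.7 CPM in MLST8-KO samples. Every MLST8-KO sample was below the lowest WT sample, and TNFRSF10B was 1.94-fold lower in MLST8-KO cells (log2 fold change -0.96, SE 0.13, adjusted p = 0.00281, edgeR). TNFRSF10A, the sister receptor DR4 (chromosome 8, 23190452 to 23225126), was at 8.89, 10.1 and 11.98 CPM in WT and 7.74, 7.78 and 7.49 CPM in MLST8-KO samples. It was 1.34-fold lower (log2 fold change -0.43, SE 0.15, adjusted p = 0.0488, edgeR). This call was close to the threshold and was kept in 3 of 14 alternative fits. Without WT replicate 3 it was at -0.31 (adjusted p = 0.164, edgeR). FAS, another death receptor, was at 2.81 ± 0.133 and 3.33 ± 0.798 CPM, and its interval of -0.25 to 0.75 was wide at these 38 to 63.9 counts.

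PERP and TP53INP1 rose. PERP (chromosome 6, 138088505 to 138107511), which is also a target of p63 in stratified epithelia, was at 870, 671 and 495 CPM in WT and 1118, 1028 and 974 CPM in MLST8-KO samples. The groups did not overlap, but the WT samples differed by more than 1.5-fold among themselves. PERP was 1.53-fold higher (log2 fold change 0.62, SE 0.16, adjusted p = 0.0193, edgeR). TP53INP1 (chromosome 8, 94925972 to 94949411), a stress protein that links p53 to autophagy and apoptosis, was at 12.6, 9.02 and 6.71 CPM in WT and 19.5, 20.4 and 13.6 CPM in MLST8-KO samples. It was 1.89-fold higher (log2 fold change 0.91, SE 0.22, adjusted p = 0.0133, edgeR), with MLST8-KO replicate 3 close to WT replicate 1. Both genes missed the threshold in fits that lacked WT replicate 2, MLST8-KO replicate 1 or MLST8-KO replicate 2. In those 3 fits PERP was at 0.60, 0.56 and 0.62 with adjusted p of 0.0700, 0.0726 and 0.0621 by edgeR, and TP53INP1 at 0.88, 0.85 and 0.81 with adjusted p of 0.0553, 0.0550 and 0.0602. Beside PERP, the squamous markers given above moved in the same direction, and their part in the result was not tested.

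The other death genes were not DEGs. AEN, an apoptosis-enhancing nuclease, was at 93.3 ± 3.73 and 80.4 ± 10.1 CPM. TRIAP1, an inhibitor of apoptosis in mitochondria, was at 19.2 ± 2.78 and 15.3 ± 0.967 CPM, and SUSD6 was at 26.3 ± 4.33 and 20.8 ± 1.46 CPM. For TRIAP1 and SUSD6 the log2 fold changes of -0.33 and -0.34 had adjusted p of 0.0712 and 0.0699 by edgeR. Without WT replicate 1, SUSD6 was a lower DEG (-0.46, adjusted p = 0.00759, edgeR), and without MLST8-KO replicate 3 so was AEN (-0.32, adjusted p = 0.0311, edgeR). SPATA18, with 12 to 22 counts, had an interval of -0.805 to 0.57. CYFIP2, an actin regulator of the WAVE complex, was at 5.35 ± 0.452 and 6.74 ± 0.818 CPM with groups that did not overlap (log2 fold change 0.34, adjusted p = 0.135, edgeR).

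Of the 7 genes of growth arrest and proliferation, 4 were lower (GDF15, GADD45A, EPHA2 and PLK3), 1 was higher (BTG2) and 2 were not DEGs (BTG1 and PLK2), beside 15.7% lower and 16.3% higher among all genes. Without MLST8-KO replicate 1, GDF15 and EPHA2 were the DEGs of this group. GDF15 (chromosome 19, 18374731 to 18389176), a circulating stress cytokine that also responds to the integrated stress response, was at 44.5, 52.4 and 77.6 CPM in WT and 16.3, 19.6 and 24.7 CPM in MLST8-KO samples. The highest MLST8-KO sample was well below the lowest WT sample, and GDF15 was 2.88-fold lower (log2 fold change -1.52, SE 0.21, adjusted p = 0.00281, edgeR). This was the only member whose change exceeded 2-fold, as 4.79% of all genes tested did. In the 6 fits that lacked a sample, GDF15 ranged from -1.69 to -1.26 on the log2 scale.

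GADD45A (chromosome 1, 67685061 to 67688338) was at 56.0, 69.9 and 97.0 CPM in WT and 42.8, 48.5 and 45.3 CPM in MLST8-KO samples. The WT samples were spread widely and the MLST8-KO samples narrowly, without overlap (log2 fold change -0.71, SE 0.17, adjusted p = 0.0119, edgeR). It missed the threshold without MLST8-KO replicate 1 (-0.66, adjusted p = 0.0536, edgeR) and was at -0.47 without WT replicate 3. EPHA2 (chromosome 1, 16124337 to 16156087) was at 294, 288 and 347 CPM in WT and 171, 218 and 202 CPM in MLST8-KO samples. It was 1.57-fold lower (log2 fold change -0.65, SE 0.11, adjusted p = 0.00388, edgeR), between -0.73 and -0.56 with each sample left out.

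The polo-like kinases PLK2 and PLK3 are stress-induced relatives of the mitotic kinase PLK1. PLK3 was at 27.7, 26.6 and 34.6 CPM in WT and 18.4, 18.5 and 23.8 CPM in MLST8-KO samples, again without overlap (log2 fold change -0.55, SE 0.14, adjusted p = 0.0150, edgeR). Without MLST8-KO replicate 1 or 2 it was at -0.49 in each case, with adjusted p of 0.0688 and 0.0647 by edgeR. PLK2 was at 74.4, 82.8 and 91.3 CPM in WT and 65.1, 76.3 and 62.7 CPM in MLST8-KO samples, with overlapping groups (log2 fold change -0.28, interval -0.52 to -0.05, adjusted p = 0.0597, edgeR). PLK2 passed the threshold without WT replicate 1 (-0.36, adjusted p = 0.0152, edgeR) or MLST8-KO replicate 2 (-0.37, adjusted p = 0.0471, edgeR).

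BTG2 (chromosome 1, 203305491 to 203309602) encodes an antiproliferative protein that recruits mRNA deadenylases. Its level was 44.0, 31.3 and 24.7 CPM in WT and 59.1, 58.3 and 49.2 CPM in MLST8-KO samples. The groups did not overlap, and BTG2 was 1.66-fold higher (log2 fold change 0.73, SE 0.17, adjusted p = 0.0124, edgeR). It missed the threshold without WT replicate 2, MLST8-KO replicate 1 or MLST8-KO replicate 2, at 0.69, 0.69 and 0.70 with adjusted p of 0.0553, 0.0525 and 0.0538 by edgeR. Its relative BTG1 was at 27.4, 29.7 and 25.2 CPM in WT and 35.5, 31.6 and 31.2 CPM in MLST8-KO samples, all MLST8-KO samples above all WT samples. The smaller change of BTG1 was not past the threshold (log2 fold change 0.26, interval 0.03 to 0.48, adjusted p = 0.0747, edgeR).

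**Figure D3:**
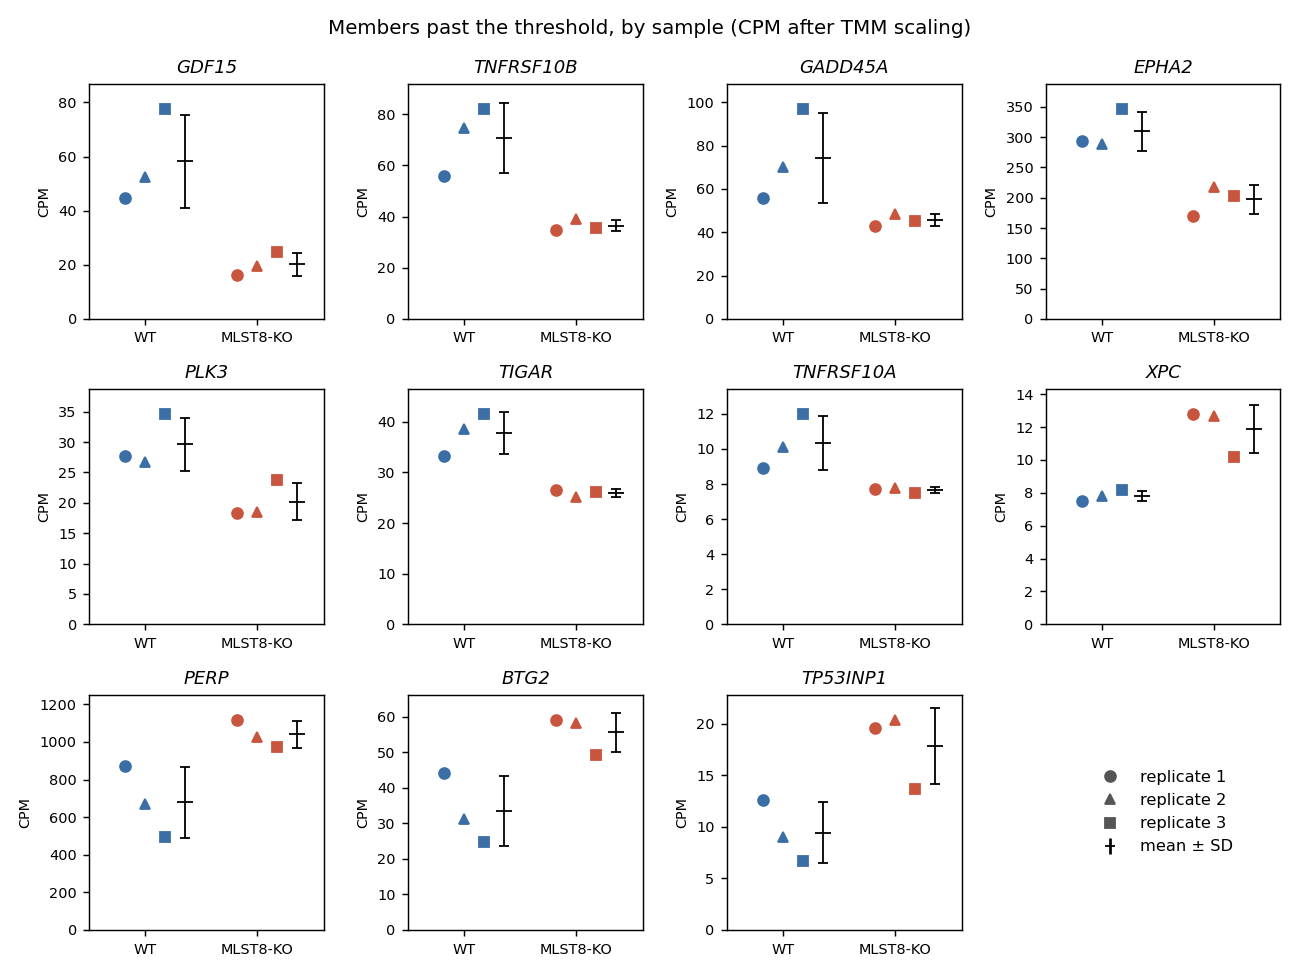
CPM of the 11 DEGs among the p53 targets in each sample, with circles, triangles and squares for replicates 1, 2 and 3 and the mean ± SD beside each group. In all 11 panels the groups do not overlap, and in 8 of them WT replicate 1 (blue circle) is the WT sample nearest the MLST8-KO mean.

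Of the 4 genes of DNA repair and nucleotide supply, XPC alone was a DEG, beside 15.7% lower and 16.3% higher among all genes. XPC (chromosome 3, 14145147 to 14178783), the sensor that opens global nucleotide excision repair, was at 7.495, 7.78 and 8.15 CPM in WT and 12.8, 12.7 and 10.2 CPM in MLST8-KO samples. The WT samples were tightly grouped and all MLST8-KO samples were higher, for a 1.52-fold increase (log2 fold change 0.60, SE 0.14, adjusted p = 0.0113, edgeR). It missed the threshold without MLST8-KO replicate 1 (0.55, adjusted p = 0.0527, edgeR). Exons of XPC share 318 bases with LSM3 on the opposite strand, which had 776 to 867 counts and was not a DEG (log2 fold change -0.17, adjusted p = 0.148, edgeR). Whether counting used the strand is not given in the sources used here, so reads of the 2 genes could not be told apart in the shared bases. Exons of 8 of the 32 genes overlap an opposite-strand gene of the table, among them 2 other DEGs. PLK3 shares 78 bases with TCTEX1D4, which had 8.49 to 29.9 counts (log2 fold change -1.17, adjusted p = 0.0410, edgeR), and TNFRSF10B shares 67 bases with RHOBTB2, which had 87 to 121 counts and was not a DEG. Genes absent from the table overlap members too, and among the DEGs most in TIGAR and XPC. TIGAR shares 1711 of its 4017 exon bases with AC008012.1 on the same strand. XPC shares 1140 bases with AC093495.1 on the opposite strand. No counts were at hand for these overlapping genes. The partner of XPC in damage recognition, DDB2, was at 12.6 ± 1.17 and 12.1 ± 1.19 CPM (log2 fold change -0.05, interval -0.34 to 0.24). POLH, the translesion polymerase eta, was at 5.70 ± 0.809 and 5.19 ± 0.859 CPM (interval -0.54 to 0.27). RRM2B, the p53-induced subunit of ribonucleotide reductase, was at 46.9 ± 4.84 and 41.1 ± 1.88 CPM, with overlap of the groups (log2 fold change -0.19, adjusted p = 0.146, edgeR). RRM2B was a lower DEG without WT replicate 1 (-0.27, adjusted p = 0.0348, edgeR).

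The unit mattered for XPC. In TPM it was at 3.36, 3.28 and 3.39 in WT and 6.68, 6.92 and 5.08 in MLST8-KO samples, a 1.86-fold rise in the mean, against 1.52-fold in CPM. Counts per unit of TPM follow the effective gene length that the authors' estimate used in each sample. Relative to the median gene, this quantity differed between groups by less than 0.05 on the log2 scale in 26 of the 28 members with at least 50 counts and 1 TPM in every sample. For XPC it was lower in MLST8-KO cells by a difference of -0.185, with no overlap of the groups, and for CYFIP2 it was higher by 0.16, also without overlap (exact permutation test, two-sided, p = 0.1 for each, the smallest that 3 samples against 3 can give). Shifts as large as these occurred in 1.14% and 1.61% of 10622 genes. The groups also did not overlap in FDXR, CCNG1, ZMAT3, TNFRSF10B, TIGAR, BTG1, PPM1D, PLK2, PHLDA3, EPHA2 and BTG2, with shifts of -0.0293 to -0.0067. XPC and CYFIP2 were therefore set apart by the size of the shift, not by the lack of overlap. The share of all genes without overlap was not counted. Which transcripts contributed is not shown by a table of genes.

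Of the 6 genes in metabolism, redox control, lysosomes and RNA binding, TIGAR was the only DEG. Of all genes, 15.7% were lower and 16.3% were higher DEGs. TIGAR (chromosome 12, 4307763 to 4354593), a fructose bisphosphatase that lowers glycolytic flux and favors the pentose phosphate pathway, was at 33.3, 38.6 and 41.5 CPM in WT and 26.6, 25.1 and 26.1 CPM in MLST8-KO samples. The MLST8-KO samples lay close together and below all WT samples (log2 fold change -0.54, SE 0.10, adjusted p = 0.00560, edgeR). With each sample left out, the value stayed between -0.63 and -0.47. TP53I3, the quinone oxidoreductase PIG3, had low counts, 40, 31 and 15 in WT and 47, 54 and 47 counts in MLST8-KO samples. All MLST8-KO samples were higher, yet at these counts the change was not past the threshold (log2 fold change 0.67, interval 0.03 to 1.30, adjusted p = 0.0989, edgeR), and it was without WT replicate 1 (0.95, adjusted p = 0.0236, edgeR). FDXR, the mitochondrial ferredoxin reductase, had an interval of -0.11 to 0.52. The interval was -0.27 to 0.15 for PHLDA3, an inhibitor of AKT, and -0.21 to 0.38 for DRAM1, a lysosomal regulator of autophagy. ZMAT3, an RNA-binding protein, was at 166 ± 8.32 and 141 ± 10.8 CPM in WT and MLST8-KO cells, with all MLST8-KO samples below all WT samples (log2 fold change -0.23, adjusted p = 0.0550, edgeR). It was a lower DEG without WT replicate 1 (-0.27, adjusted p = 0.0289, edgeR).

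The list holds 4 pairs of related genes, so their ratio within a sample shows whether both members moved alike, whatever the scaling of the library. The log2 ratio of TNFRSF10A to TNFRSF10B (on TPM + 0.1) was -1.31, -1.56 and -1.45 in WT and -0.85, -1.004 and -0.92 in MLST8-KO samples. It was higher in every MLST8-KO sample, by 0.52 on average, so TNFRSF10B lost more of its level than TNFRSF10A (exact permutation test, two-sided, p = 0.1, adjusted over the 4 pairs p = 0.2). The log2 ratio of MDM2 to MDM4 was 0.79, 0.51 and 0.66 in WT and 0.88, 0.84 and 0.88 in MLST8-KO samples, higher in every MLST8-KO sample by 0.21 on average (exact permutation test, p = 0.1, adjusted p = 0.2). For BTG1 to BTG2 the ratio was -1.51, -0.89 and -0.79 in WT and -1.55, -1.70 and -1.48 in MLST8-KO samples. WT replicate 1 lay among the MLST8-KO samples in this ratio (difference -0.51, exact permutation p = 0.2, adjusted p = 0.267). The ratio of PLK2 to PLK3 was 1.25, 1.46 and 1.23 in WT and 1.65, 1.86 and 1.22 in MLST8-KO samples, with overlap (difference 0.27, exact permutation p = 0.4, adjusted p = 0.4). With 3 samples against 3 the smallest p this test can give is 0.1, so none of the 4 pairs could pass the threshold.

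**Figure D4:**
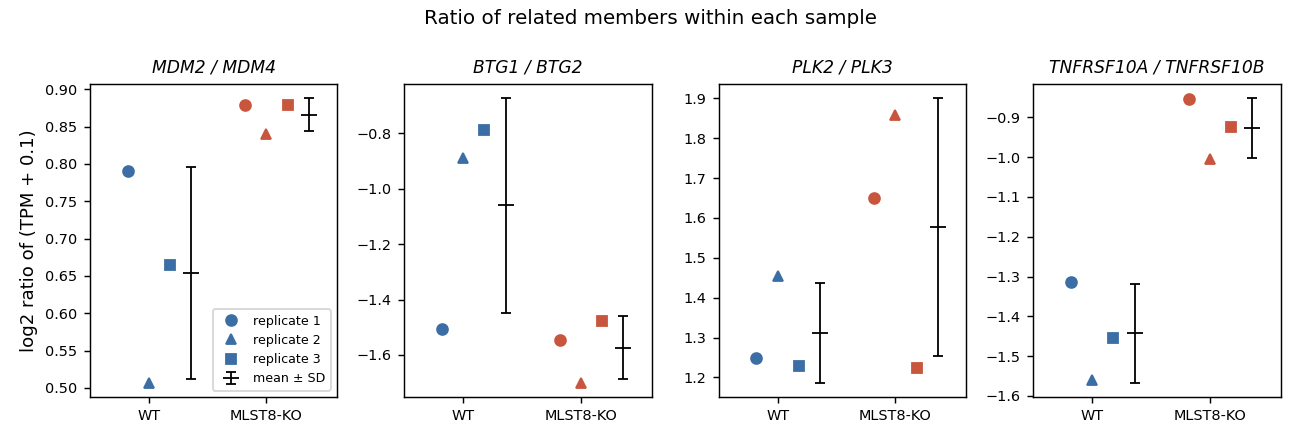
Log2 ratio of (TPM + 0.1) between related genes in each sample, with symbols for the replicate and the mean ± SD. The groups do not overlap for MDM2 to MDM4 and TNFRSF10A to TNFRSF10B, and WT replicate 1 lies beside the MLST8-KO samples for BTG1 to BTG2.

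The WT samples differed among themselves in these genes. WT replicate 1 was the WT sample nearest the MLST8-KO mean in 8 of the 11 DEGs, and WT replicate 3 was the farthest in 10 of 11. The exceptions were EPHA2 and PLK3, with WT replicate 2 nearest, and XPC, with WT replicate 3 nearest. Over all 4146 DEGs the corresponding shares were 75.9% and 75.1%, so the order among WT samples was shared with DEGs in general. The spread of the WT group exceeded that of the MLST8-KO group in GDF15 (SD 17.3 against 4.23 CPM), GADD45A (20.8 against 2.87), PERP (188 against 72.7) and TNFRSF10B (13.6 against 2.31). The opposite held in XPC (0.330 against 1.47) and TP53INP1 (2.97 against 3.68). These SDs were not scaled to the group means, which were 9.44 and 17.9 CPM for TP53INP1 in WT and MLST8-KO cells. For GDF15 the means were 58.2 and 20.2 CPM. In GDF15, BTG2 and PERP the MLST8-KO samples kept the replicate order of the WT samples. In the other DEGs they did not. What set the WT samples apart, and whether the MLST8-KO samples shared it, was not tested.

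The relatives p63 and p73 were measured in the same libraries. TP63 was abundant, at 719 ± 151 TPM in WT and 1057 ± 87.3 TPM in MLST8-KO cells. TP73 was at 2.37 ± 0.243 and 3.96 ± 0.249 TPM. The fold changes were fitted to counts, where the means were 1754 and 2424 CPM for TP63 and 6.45 and 10.2 CPM for TP73. In this fit TP63 was 1.38-fold higher (0.47 on the log2 scale, SE 0.13, adjusted p = 0.0211, edgeR). TP73 was 1.58-fold higher (0.66, SE 0.14, adjusted p = 0.00899, edgeR). CDKN1A, the CDK inhibitor p21 and the best known p53 target, was at 163, 163 and 173 CPM in WT and 120, 123 and 131 CPM in MLST8-KO samples. It was 1.33-fold lower, with tight groups (log2 fold change -0.42, SE 0.08, adjusted p = 0.00482, edgeR).

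Of 57 tested p53 targets outside the 32 genes, 15 were higher and 10 were lower DEGs, with a median log2 fold change of 0.13, so this list too moved in both directions. Of 22 family members and regulators of p53, 6 were higher and 0 were lower DEGs in edgeR (median 0.16), and 3 of them were lower at an unadjusted p under 0.05. Of 22 cell cycle genes that are lowered through p53, p21 and the DREAM complex, 16 were higher and 0 were lower DEGs. Their median was 0.45, and 0 were lower at an unadjusted p under 0.05. DESeq2 likewise called 0 genes of either list lower. All MLST8-KO samples lay above all WT samples in 20 of the 22 cell cycle genes, against 24.8% of all genes tested. The share of higher DEGs was 26.3%, 27.3% and 72.7% in the 3 lists, against 16.3% of all genes tested. The share of lower DEGs was 17.5%, 0% and 0%, against 15.7%. Without MLST8-KO replicate 1, 6, 2 and 9 genes of these lists were higher DEGs, against 7.49% of all genes.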

How the data were processed

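RNA-seq values of 3 WT and 3 MLST8-KO samples of HCC2814 cells were used. Per the methods and processing notes, reads were filtered for quality and adapters and then mapped with HISAT (genome GRCh38.p12) and Bowtie2 (gene references). The values deposited by the authors were estimated counts without normalization and TPM, scaled by gene length and depth. A table of the authors' own DESeq2 and Poisson comparisons and the FPKM columns were not used. The labels and the methods name different RNA extraction kits. Of the estimated counts, 12.4% were not whole, and they were rounded. Date-like entries in place of 25 symbols were replaced through their gene identifiers. Tests used edgeR 4.0.16 in R 4.3.3 (filterByExpr, TMM, glmQLFit and glmQLFTest without pairing), with Benjamini-Hochberg adjustment over 12951 genes. Each SE is |log2 fold change| over the square root of F. Alternatives were DESeq2 1.42.0, limma 3.58.1, other scalings and filters, pairing by replicate number and omission of single samples. In simulated counts for 12868 genes, 86.5% of 200 genes changed by a log2 fold change of 1 were recovered. The data held 4146 DEGs, and GDF15 was the only member that changed by more than 1. The rate therefore does not describe how well the smaller changes of the other members were recovered. The members and lists were chosen with earlier results of these data known. All 32 members were named, and genes outside the list by counts, apart from MLST8, CDKN1A, TP63 and TP73. The values of 1 gene fixed for naming are not reported here. LSM3, TCTEX1D4, RHOBTB2, AC008012.1 and AC093495.1 were named after their overlaps with members were seen. Coordinates are those of GENCODE v29 on GRCh38.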

Additional observations from a re-analysis of the deposited data

How the results depend on the processing

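GDF15, TNFRSF10B, TIGAR and EPHA2 were lower DEGs in all 14 alternative fits. The 4 higher DEGs and, apart from TNFRSF10A, the 7 lower DEGs kept their calls in the 8 alternatives that used all samples. Upper quartile scaling gave 5 higher and 6 lower members, against 4 and 7. BTG1 passed the threshold with that scaling and with limma on log2(TPM + 0.1), ZMAT3 with DESeq2 and TP53I3 with limma at both pseudocounts. Upper quartile scaling called 2546 of all genes higher and 1559 lower, against 2116 and 2030.

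With 1 sample left out, 0 to 5 members were higher and 4 to 11 were lower. Of all genes, 7.41% to 20.5% were higher and 6.50% to 20.2% lower in these fits. The p53 targets outside the list had 4 to 21 higher and 5 to 11 lower DEGs, the family and regulators 2 to 8 higher and 0 to 1 lower, and the cell cycle genes 7 to 18 higher. Fewer samples were fitted in each. The lowest counts of members came without MLST8-KO replicate 1 (0 higher, 4 lower) and the highest count of lower members without WT replicate 1 (11).

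Deviations from the group mean correlated between same-numbered samples at r = 0.10, 0.05 and 0.14 over 12951 genes. Each sample correlated best with its own number, against r of -0.11 to 0.02 between samples of different numbers. The main fit was kept without pairing, and the paired fit is given as an alternative. With the replicate block 4 members were higher and 6 lower, against 17.5% and 16.7% of all genes. TNFRSF10A was lost (adjusted p = 0.0558, edgeR), and 1 p53 regulator was lower. Among the DEGs the block lowered the SE most in GDF15, from 0.21 to 0.09, and raised it slightly in TIGAR, XPC and TNFRSF10A.

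SPATA18, DDB2, PHLDA3 and DRAM1, none of them DEGs, turned sign in some fits. SPATA18 was at 0.031 and 0.076 with limma on log2(TPM + 1) and log2(TPM + 0.1) and -0.278 to 0.100 with 1 sample left out. DDB2 was at 0.0037 with upper quartile scaling, 0.0624 and 0.0667 with limma, and -0.134 to 0.0074 with 1 sample left out. PHLDA3 was at 0.0555 and 0.0563 with limma and -0.152 to 0.0248, and DRAM1 at -0.0323 to 0.138, with 1 sample left out. The cause was not tested.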
